A study of Mus musculus with 4 samples.

Results

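The comparison set the end of a culture protocol for primary mouse hepatocytes, stage S3, against its start, stage S0, across all genes that reached at least 1 read per 1000000 reads in genes (CPM) in either library. Of the 30138 entries of the deposited gene table, 14358 met that rule and all of them were compared. The cells were primary mouse hepatocytes from liver, and the study followed them through stepwise culture toward insulin-producing cells, with RNA of each stage sequenced as 1 library. S3 was the culture after all steps, the last being 7 days of 10 mM nicotinamide in medium without fibroblast growth factor (FGF) and epidermal growth factor (EGF). The stages in between were S2, after 7 days of retinoic acid (labelled 2 mM) with insulin, transferrin and selenium, and S1, after the DNA methylation inhibitor 5-azacytidine (labelled 5 mM) for 48 h and the histone deacetylase inhibitor trichostatin A (100 nM) for 24 h. S0 was the culture in serum-free medium with 2% knockout serum, B-27 and N-2 supplements, 20 ng/ml basic FGF and 20 ng/ml EGF, reached after growth in 10% fetal bovine serum. Both millimolar doses are given as labelled and were not checked. The labels give the same growth protocol for every stage. S3 differs from S0 by all of these additions, by the withdrawal of growth factors and by time in culture, which cannot be told apart. The labels give no strain, age or sex, and do not say whether the stages came from 1 preparation of cells.

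Hepatocytes make the bulk of the blood plasma proteins and carry the enzymes of ammonia disposal, bile acid synthesis and drug metabolism. In flat culture they are known to lose much of this program, which liver transcription factors such as Hnf4a maintain. Liver preparations also hold resident macrophages (Kupffer cells), endothelial cells, stellate cells and mesothelial cells, which can outlive or outgrow the hepatocytes. Pancreatic beta cells share several transcription factors with hepatocytes and are defined by insulin, by the granule proteins that package it and by factors such as Pdx1 and Mafa.

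Reads in genes numbered 23633176 in S3 and 27602967 in S0, so that a gene without a read lay below 0.128 CPM in S3 and 0.112 CPM in S0 (3 reads). Every ratio below is scaled CPM in S3 over scaled CPM in S0, with its 95% counting interval (Clopper-Pearson) in parentheses, and a gene given as N-fold lower has the inverse ratio, S0 over S3. A gene was called higher or lower in S3 only when that whole interval lay beyond 2-fold. Where 1 library had 0 reads, only the interval's inner limit is given, written as "at least". With 1 library a stage there is no spread between cultures, no difference has a replicate check, and no p-value is given. In bulk RNA, fewer cells of a type and less RNA per cell cannot be told apart.

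The labelled cell type was checked against its markers. The S0 library held reads of hepatocyte genes next to those of other cells. On the RPKM scale, which corrects for gene length, albumin (Alb) had 623 RPKM in S3 and 40.3 RPKM in S0. Lyz2, the lysozyme of macrophages, had 146 RPKM in S3 and 2476 RPKM in S0, and Acta2, the smooth muscle actin, had 67.8 RPKM in S3 and 767 RPKM in S0. In S3 albumin thus stood above both, and in S0 below both. Of 54 listed hepatocyte enzymes and transporters, 24 stayed under 1 CPM in both S3 and S0. These include Cyp7a1, the rate-limiting enzyme of bile acid synthesis, with 0 reads in both, Cyp2e1, a drug and ethanol oxidase, with 2 reads in S3 and 1 in S0, and Pck1, a gluconeogenic enzyme, with 0 reads in S3 and 2 in S0. The libraries are therefore called S3 and S0 below, not hepatocytes and their product.

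Between S3 and S0, 1358 genes were higher (9.46% of the 14358) and 1593 were lower (11.1%), while 11407 passed neither limit. The shares of 9.46% and 11.1% are the background for every list count below. The median log2 ratio of all 14358 genes was 0.03. The genes called higher held 14.5% of reads in S3 and 4.17% in S0, and those called lower held 4.09% in S3 and 16.6% in S0. The interval lay beyond 4-fold for 473 higher and 812 lower genes and beyond 10-fold for 150 higher and 393 lower genes. Genes that reached 1 CPM in S3 alone numbered 804 and in S0 alone 845, and their direction is fixed by the filter. Among the 12709 genes at 1 CPM or more in both libraries, 930 were higher and 1084 lower. At the filter's edge, Clic3 just passed, with 0.299 CPM in S3 and 1.01 CPM in S0, and Gdap1 just failed, with 0.982 CPM in S3 and 0.674 CPM in S0.

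**Figure D1:**
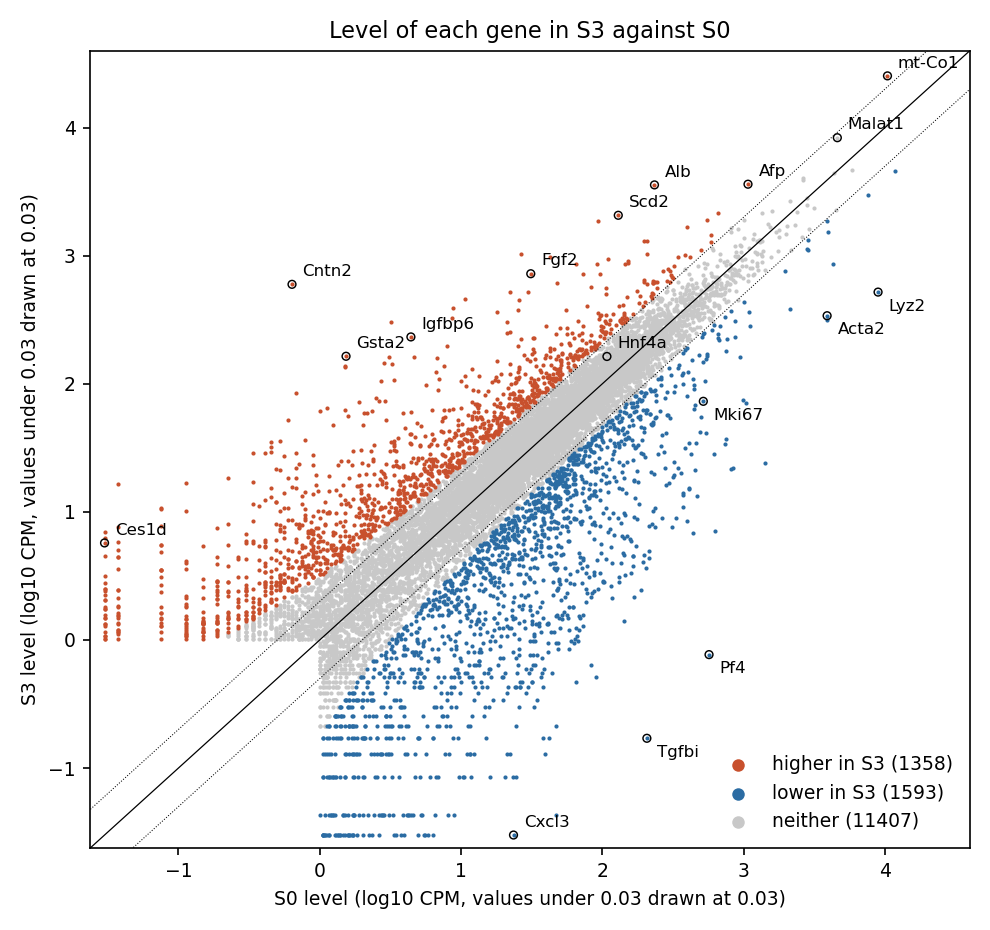
Level of each of the 14358 genes in S3 (vertical axis) against S0 (horizontal axis), both as log10 CPM; values under 0.03 CPM are drawn at 0.03. Red and blue points are genes called higher (1358) and lower (1593) in S3, grey points neither; the line marks equal levels and dotted lines a 2-fold difference. Cntn2 stands highest above the line, and Tgfbi and Pf4 lie far below it, while Malat1 and Hnf4a lie within the dotted lines.

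Measured plasma proteins were mostly higher at the end of the protocol. Of 51 listed, 37 were measured, and the others, such as Apoa2, F9 and Serpinc1, stayed under 1 CPM in both libraries. Of the 37 measured members, 21 were higher and 3 lower, with a median log2 ratio of 1.71. Over all genes that median was 0.03, and 9.46% were called higher and 11.1% lower. Alb had 3569 CPM in S3 and 234 CPM in S0, a 15.3-fold (14.9 to 15.7) difference. Over the 4 stages its level was 234, 1724, 7171 and 3569 CPM in S0, S1, S2 and S3, so the S2 library held more of it than S3. Gc, the vitamin D binding protein, had 1877 CPM in S3 and 92.5 CPM in S0 and was 20.3-fold higher (19.5 to 21.1), with the S3 library the highest of the 4 stages. Kng1, the kininogen of the kinin system, had 159.6 CPM in S3 and 6.74 CPM in S0 and was 23.7-fold higher (20.4 to 27.7), and the adjacent and similar Kng2 was 57.6-fold higher (40.2 to 85.7). Reads of those kininogen genes may be shared in the authors' counting. Vtn, the adhesive plasma protein vitronectin, had 30 CPM in S3 and 1.72 CPM in S0, 17.4-fold higher (12.9 to 24). C3, the central complement protein, had 858 CPM in S3 and 65.1 CPM in S0 and was 13.2-fold higher (12.5 to 13.8), with most of that difference arising between S2 (80.1 CPM) and S3. The iron carrier transferrin (Trf) was 3.5-fold higher (3.35 to 3.67), and the lipoprotein protein Apoa1 6.45-fold higher (5.47 to 7.65) at 40.3 CPM in S3 and 6.25 CPM in S0. Apoa1 peaked in between, at 203 CPM in S1 and 315 CPM in S2. Both were chosen after their values were seen, as were the fibrinogen chains Fgb, with 64.4 CPM in S3 and 69.7 CPM in S0, and Fga, with 43.8 CPM in S3 and 28.6 CPM in S0, which passed neither limit. The 3 lower members were the clotting factors F7, with 0.128 CPM in S3 and 8.2 CPM in S0, and F10, with 0.213 CPM in S3 and 7.0 CPM in S0, and the lipoprotein Apoe, with 1861 CPM in S3 and 3919.5 CPM in S0, 2.11-fold lower (2.08 to 2.13). F7 and Apoe are also made outside hepatocytes, Apoe by macrophages in particular, and the part of such cells in these values was not tested. Over the 4 stages Apoe had 3919.5, 2662, 781 and 1861 CPM in S0, S1, S2 and S3, so it stood higher in S3 than in S2. The summed level of the list was 12666 CPM in S3 and 8239 CPM in S0.

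Hepatocyte enzymes and transporters gave 13 higher and 2 lower among 30 measured members, with a median log2 ratio of 1.23. Of these 30, 9 reached 1 CPM in S3 alone and could only be higher. Abcc2, the canalicular export pump for conjugates, had 517 CPM in S3 and 22.1 CPM in S0 and was 23.4-fold higher (21.5 to 25.4). Gsta3, a glutathione transferase, had 458 CPM in S3 and 10.7 CPM in S0, 42.6-fold higher (37.9 to 48.1). Cyp2a5, a xenobiotic oxidase, had 137 reads in S3 and 1 in S0, a ratio of 156 (27.6 to 6215). Cyp1a2, another oxidase of the family, had 129 reads in S3 and 2 in S0, a ratio of 73.5 (20 to 614). All 4 reached their S3 level, or a higher one, already in S2 apart from Gsta3, which had 301 CPM there. The lower members were Arg1, the arginase of the urea cycle and of macrophages, with 0.982 CPM in S3 and 67.6 CPM in S0, 68.8-fold lower (45.7 to 109), and Hal, the first enzyme of histidine breakdown, with 7.9 CPM in S3 and 88.6 CPM in S0, 11.2-fold lower (9.65 to 13.1). Cps1, which starts the urea cycle, passed the higher limit at a low level, with 1.2 CPM in S3 and 0.15 CPM in S0; it was chosen after its values were seen.

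Among the transcription factors of the liver, 8 of 27 measured members were higher and 1 was lower, and the median log2 ratio was 0.77. Of these 27, 3 reached 1 CPM in S3 alone and could only be higher, Onecut1 among them. Hnf4a, the factor that maintains the hepatocyte program, had 108, 38.9, 234 and 163 CPM in S0, S1, S2 and S3. Its S3 level was 1.52 times that of S0 (1.44 to 1.59), inside the 2-fold limit. The bile acid receptor Nr1h4 was 6.55-fold higher (5.13 to 8.45) at 18.9 CPM in S3 and 2.88 CPM in S0, and Nr5a2, a partner in bile acid synthesis, was 4.65-fold higher (3.44 to 6.38) at 9.39 CPM in S3 and 2.02 CPM in S0. Onecut1, a factor of early liver, bile duct and pancreas, had 3.03 CPM in S3 and 0.524 CPM in S0, 5.78-fold higher (3.23 to 11.1). The nuclear receptor Rora was 2.62-fold higher (2.41 to 2.85) and the zinc finger factor Gata4 2.33-fold higher (2.15 to 2.52). Tbx3, a factor of hepatoblasts, was 2.6-fold lower (2.05 to 3.32), a call lost with upper-quartile scaling and with a 99% interval.

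Genes of fetal liver and growth did not move one way, with 4 of 18 measured members higher, 6 lower and a median log2 ratio of -0.49. Afp had 3615 CPM in S3 and 1073 CPM in S0 and was 3.37-fold higher (3.32 to 3.41). Per gene length Alb and Afp stood at 623 and 622 RPKM in S3, against 40.3 and 182 RPKM in S0. Igf2, the fetal growth factor, was 9.0-fold higher (7.22 to 11.3), with 3.37, 7.96, 2.28 and 30.3 CPM in S0, S1, S2 and S3. The cell surface proteoglycan Gpc3 was 2.59-fold higher (2.39 to 2.81) and the imprinted gene Ndn 2.87-fold higher (2.69 to 3.06). Hmga2, a chromatin protein of fetal and growing cells, had 19 CPM in S3 and 106 CPM in S0 and was 5.58-fold lower (5.05 to 6.18), and the related Hmga1 was 2.66-fold lower (2.54 to 2.79). Igf2bp3, a fetal RNA-binding protein, was 2.71-fold lower (2.5 to 2.94). Biliary and liver progenitor markers gave 7 higher and 2 lower of 23 measured members (median log2 ratio 0.52). Of these 23, 4 reached 1 CPM in S3 alone, all of them among the higher. The median was 0.19 over 27 members with more than 3 reads and 0.31 with a filter of 10 CPM. The summed level of all 28 listed markers was 4598 CPM in S3 and 5647 CPM in S0. Prom1, a progenitor surface protein, was 6.17-fold higher (4.59 to 8.44) at 12.3 CPM in S3 and 1.98 CPM in S0, and Lgr5, the receptor of R-spondins on stem cells, had 68 reads in S3 and 5 in S0. The bile duct keratin Krt19 was 3.23-fold lower (3.06 to 3.41), with 74 CPM in S3 and 239 CPM in S0, and the matrix protein Spp1 3.97-fold lower (3.86 to 4.08), with 282 CPM in S3 and 1117 CPM in S0.

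Transcripts of macrophages were far lower in S3. All 36 listed macrophage and Kupffer cell markers were measured, 35 were lower and 0 higher, and the median log2 ratio was -4.46. Their summed level was 1271 CPM in S3 and 22017 CPM in S0, and it stood at 6126 CPM in S1 and 1450 CPM in S2. Lyz2 had 519.8 CPM in S3 and 8936 CPM in S0 and was 17.2-fold lower (16.9 to 17.5). Adgre1, the F4/80 antigen, had 373, 139, 8.47 and 10.9 CPM in S0, S1, S2 and S3 and was 34.3-fold lower (30.3 to 39). Fcgr1, a high-affinity antibody receptor, had 12 reads in S3 and 2427 in S0, 177-fold lower (101 to 344). The complement component C1qc was 64.2-fold lower (54.9 to 75.6), the scavenger receptor Msr1 58.5-fold lower (53.8 to 63.7) and Ncf1, a subunit of the phagocyte oxidase, 56.5-fold lower (45.6 to 70.8). Gpnmb, a glycoprotein of lipid-laden and lysosome-rich macrophages, had 317 CPM in S3 and 3883 CPM in S0, 12.2-fold lower (12 to 12.5). Of the 15 protein-coding genes whose intervals lay farthest on the lower side, Pf4, Gpr84, Cxcl3, Tnf, Fcgr1, Cd74, P2ry12, P2ry13, F13a1, Stab1 and Coro1a are known from macrophages, other leukocytes or platelets. Pf4, a platelet and macrophage chemokine, had 18 reads in S3 and 15193 in S0, a 740.2-fold (468 to 1249) difference. Cxcl3, a neutrophil chemokine, had 0 reads in S3 and 628 in S0, at least 149-fold lower. Tnf, the inflammatory cytokine, had 3 reads in S3 and 1043 in S0, a ratio of 305 (104 to 1481). Tgfbi, a matrix protein induced by TGF-beta, had 4 reads in S3 and 5518 in S0, 1209.8-fold lower (472 to 4442). Of 30 listed markers of other leukocytes 7 were measured, 6 of them at 1 CPM in S0 alone, and 6 were lower and 0 higher. Trac, the constant segment of the T cell receptor, had 0 reads in S3 and 70 in S0, at least 16.2-fold lower. Csf3r, a receptor of neutrophils, was 19.6-fold lower (11.9 to 34.6).

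Lysosomal genes fell in part, with 9 of 30 measured members lower, 0 higher and a median log2 ratio of -0.62. The macrophage protease Ctsc was 13.4-fold lower (12.4 to 14.4), with 34.7 CPM in S3 and 463 CPM in S0, and the beta-glucuronidase Gusb 4.53-fold lower (4.25 to 4.82). Ctsd and Ctsb, cathepsins of many cell types, were among the genes that lost most CPM: Ctsd had 2974 CPM in S3 and 7599 CPM in S0, and Ctsb had 1539 CPM in S3 and 3950.4 CPM in S0. How much of this belongs to the lower macrophage transcripts was not tested.

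Markers of the other cells of a liver preparation moved in different directions. Smooth muscle contractile genes gave 15 lower and 0 higher of 21 measured (median log2 ratio -1.67). Acta2, which marks activated stellate cells and myofibroblasts, had 3895, 534, 212 and 339.9 CPM in S0, S1, S2 and S3 and was 11.5-fold lower (11.2 to 11.7). Cnn1, a calponin of the contractile apparatus, was 16.5-fold lower (15.1 to 18.2), and the smooth muscle myosin Myh11 12.6-fold lower (11.5 to 13.8). Endothelial markers gave 7 lower and 3 higher of 18 measured (median log2 ratio -1.52). Of these 18, 6 reached 1 CPM in S0 alone and 3 of the lower calls are among them. The median was -0.71 over the 24 members that pass a filter of more than 3 reads. Stab1, a scavenger receptor of liver sinusoids and of macrophages, was 89.2-fold lower (76.5 to 105), and Vwf, the clotting factor of endothelium, had 0.811 CPM in S3 and 13.8 CPM in S0, 17-fold lower (10.7 to 28.5). The angiogenic protein Egfl7 was 4.33-fold higher (3.27 to 5.8), at 10.4 CPM in S3 and 2.4 CPM in S0.

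Stellate cell and fibroblast markers gave 13 higher and 5 lower of 26 measured members, with a median log2 ratio of 1.23. Of the 26, 5 reached 1 CPM in S3 alone and 2 in S0 alone. The summed level of the list was 4757 CPM in S3 and 5627 CPM in S0. Dcn, the matrix proteoglycan decorin, had 29.9, 30.2, 146 and 523 CPM in S0, S1, S2 and S3 and was 17.5-fold higher (16.3 to 18.8). Lrat, which stores vitamin A in stellate cells, had 97 reads in S3 and 3 in S0, a ratio of 36.9 (12.2 to 182). The mucin-type protein Pdpn was 4.91-fold higher (4.55 to 5.31). Thy1, a fibroblast surface antigen, was 4.22-fold lower (3.63 to 4.92), and the filament protein Vim had 1316 CPM in S3 and 2847 CPM in S0, 2.16-fold lower (2.14 to 2.19). Mesothelial markers, of the lining of the liver capsule, gave 11 higher and 1 lower of 18 measured members, with a median log2 ratio of 2.33. The lower member was the keratin Krt19, listed with the biliary markers too, at 74 CPM in S3 and 239 CPM in S0. Igfbp6, a binding protein for IGF2, had 4.42, 25.1, 86.7 and 232 CPM in S0, S1, S2 and S3 and was 52.5-fold higher (43.8 to 63.6). Gpm6a, a membrane glycoprotein of mesothelium and neurons, had 387 CPM in S3 and 8.8 CPM in S0 and was 44-fold higher (38.6 to 50.3). Rspo1, a secreted activator of Wnt signalling, had 678 reads in S3 and 11 in S0, 70.3-fold higher (39 to 141). Wt1, the transcription factor of mesothelium, was 6.18-fold higher (5.59 to 6.84), at 107 CPM in S3 and 17.3 CPM in S0, and Msln, the mesothelin antigen, passed neither limit, at 446 CPM in S3 and 774 CPM in S0; both were chosen after their values were seen. The summed level of the mesothelial list was 2931 CPM in S3 and 1531 CPM in S0.

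Collagens and their processing enzymes gave 12 higher and 3 lower of 39 measured members (median log2 ratio 0.46). Col3a1, a fibrillar collagen, had 152, 56.6, 163 and 881 CPM in S0, S1, S2 and S3 and was 5.79-fold higher (5.6 to 5.99). The microfibrillar collagen Col6a1 was 7.01-fold higher (6.52 to 7.54), whereas Col6a3, of the same collagen, was 10.9-fold lower (8.2 to 14.8), with 2.18 CPM in S3 and 23.8 CPM in S0. The basement membrane collagen Col4a6 was 4.85-fold higher (4.59 to 5.14), and Col4a1 gained 1273 CPM but stayed inside the limit at 1.48-fold. Sparc, a collagen-binding glycoprotein, was 3.46-fold higher (3.39 to 3.52), and Timp3, a matrix-bound protease inhibitor, had 2136 CPM in S3 and 658 CPM in S0, 3.25-fold higher (3.19 to 3.3). Of 26 matrix proteases and inhibitors 7 were higher and 6 lower (median log2 ratio 0.27): Mmp15, a membrane protease, was 7.19-fold higher (5.36 to 9.83), and Mmp9, a gelatinase of leukocytes, 13-fold lower (10.4 to 16.4). Among keratins, claudins and desmosome genes, 10 of 25 were higher and 0 lower (median log2 ratio 0.73); the tight junction protein Ocln was 4.94-fold higher (4.3 to 5.68) and the junction adhesion molecule F11r 2.94-fold higher (2.83 to 3.05). The main keratins of hepatocytes passed neither limit (chosen after their values were seen), Krt8 at 1539 CPM in S3 and 1692 CPM in S0 and Krt18 at 1032 CPM in S3 and 1244 CPM in S0.

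**Figure D2:**
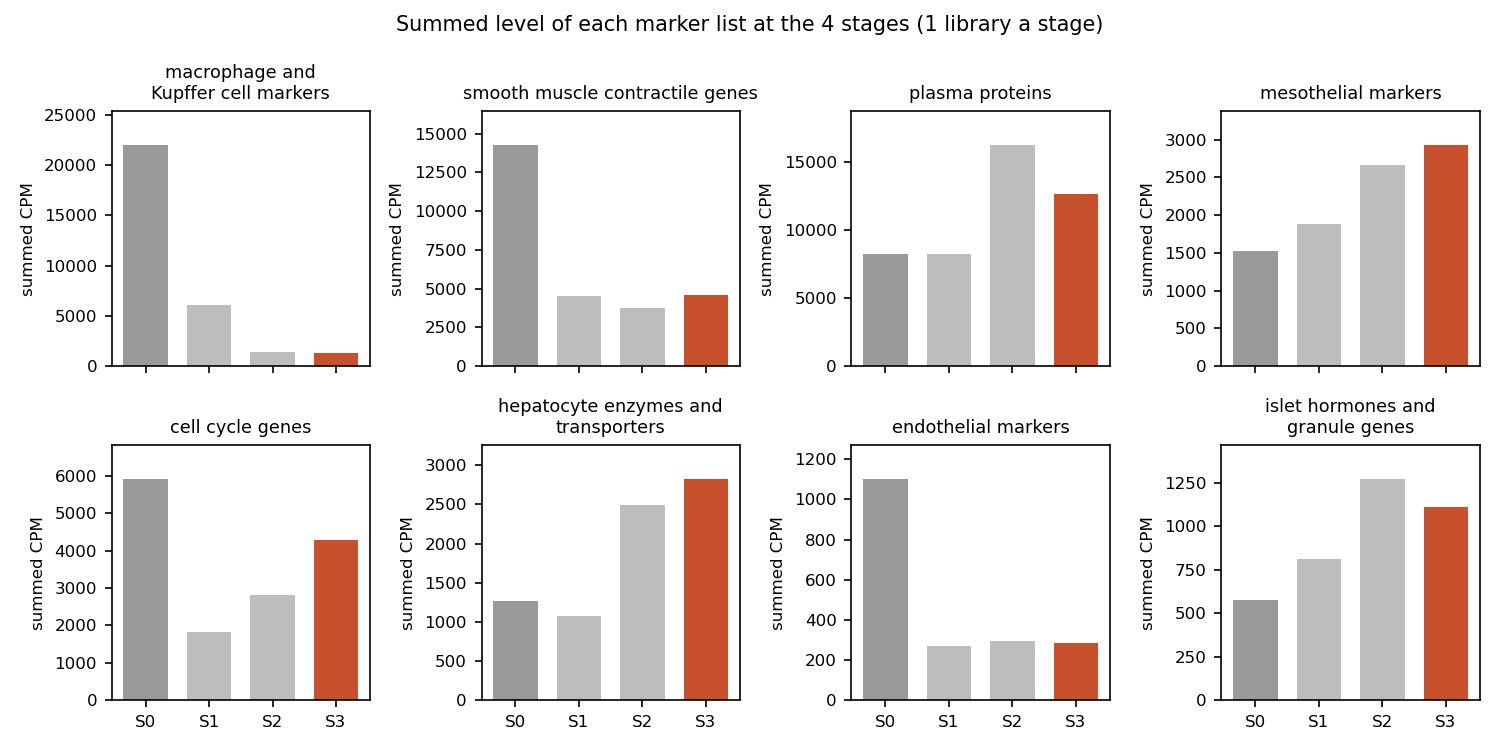
Summed level (CPM, vertical axes from 0, a scale of its own in each panel) of all members, measured or not, of 8 gene lists. Bars are the S0, S1, S2 and S3 libraries, 1 library a stage, without error bars because there are no replicates. S3 bars are red and S0 bars dark grey. The islet list includes Ttr, which the plasma protein list also holds. The macrophage list stands at 1271 CPM in S3 against 22017 CPM in S0, and the plasma protein list at 12666 CPM in S3 against 8239 CPM in S0.

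Genes of cell division were lower at the end. Of 53 measured cell cycle genes, 35 were lower and 1 was higher, with a median log2 ratio of -1.77. Mki67, the nuclear protein of dividing cells, had 518, 33.1, 11.2 and 73 CPM in S0, S1, S2 and S3 and was 7.1-fold lower (6.75 to 7.47) in S3 than in S0, although S3 stood above S2. The mitotic cyclin Ccnb2 followed the same order, with 42.8, 3.51, 1.5 and 7.43 CPM in S0, S1, S2 and S3, 5.76-fold lower in S3 than in S0 (4.9 to 6.79). E2f2 and E2f8, factors of the S phase program, were 13.1-fold (9.15 to 19.4) and 6.54-fold lower (5.05 to 8.59). Ccnd2, a cyclin of early G1, was the only higher member, with 1449 CPM in S3 and 583 CPM in S0 (2.48-fold, 2.44 to 2.53). It makes up a large part of the list's summed level, which was 4292 CPM in S3 and 5930 CPM in S0. Ccnd1, chosen after its values were seen, passed neither limit, at 523 CPM in S3 and 607 CPM in S0.

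The start region of Ccnb2 is shown because many of the lower cell cycle genes hold short elements there: the CCAAT box, and TTTGAA, the core of the cell cycle homology region. Sequences are RefSeq promoter windows of 300 bases in build GRCm38.p6, 5′ to 3′ on the gene's strand. The one below covers chr9:70421505-70421804 on the minus strand, with 3 CCAAT boxes (starting 87, 54 and 21 bases before the gene's start) and 2 copies of TTTGAA (167 bases before and 5 bases after the start) in capitals.
Ccnb2: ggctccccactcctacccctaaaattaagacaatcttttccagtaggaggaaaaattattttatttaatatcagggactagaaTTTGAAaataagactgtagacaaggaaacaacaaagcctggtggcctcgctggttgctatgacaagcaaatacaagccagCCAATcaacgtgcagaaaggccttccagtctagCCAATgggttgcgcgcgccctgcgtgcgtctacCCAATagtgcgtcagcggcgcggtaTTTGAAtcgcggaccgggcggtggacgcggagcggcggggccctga
Both elements were searched on both strands and do not overlap each other in letters. Of the 35 lower cell cycle genes, 29 had a window: 23 of these held CCAAT, 17 held TTTGAA and 17 held both. Over all 27025 genes with a window, 41.1% held CCAAT, 20.2% TTTGAA and 7.97% both. Such a match is a description of letters and shows no binding.

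Cell cycle inhibitors and targets of the tumour suppressor p53 gave 8 higher and 1 lower of 30 measured members, with a median log2 ratio of 0.64. Trp53inp1, a p53-induced nuclear protein, had 207, 295, 435 and 1029 CPM in S0, S1, S2 and S3 and was 4.98-fold higher (4.84 to 5.13). Cdkn2b and Cdkn2a, which share a locus and restrain the G1 kinases, were 3.84-fold (3.67 to 4.01) and 3.31-fold higher (2.89 to 3.79). Gadd45a, a growth arrest gene, was 3.4-fold higher (2.95 to 3.93). Cdkn2c, another inhibitor of the same family, was 7.88-fold lower (6.54 to 9.56), with 5.29 CPM in S3 and 41.7 CPM in S0. Cdkn1a, the best known p53 target (chosen after its values were seen), was at 88.2 CPM in S3 and 83.9 CPM in S0 and passed neither limit.

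Retinoic acid was given before the last step, and part of its target genes stood above their S0 level at the end. Retinoic acid enters the nucleus, binds receptors of the RAR family on response elements and induces its own degrading enzymes. Of 25 measured members of the list, 12 were higher and 2 lower (median log2 ratio 0.82), and 6 reached 1 CPM in S3 alone. Cyp26a1, the main retinoic acid hydroxylase, had 0, 1, 320 and 48 reads in S0, S1, S2 and S3. Its S3 level was at least 14.3-fold higher than in S0 and still below S2. Its relative Cyp26b1 had 0.674, 2.58, 29.2 and 15.4 CPM in S0, S1, S2 and S3, 22.9-fold higher in S3 than in S0 (14.3 to 39). The receptor gene Rarb had 13.9, 16.9, 102 and 54.7 CPM in S0, S1, S2 and S3, 3.95-fold higher (3.51 to 4.44), and Rara, which passed neither limit, had 22.5 CPM in S3 and 41.6 CPM in S0; both receptors were chosen after their values were seen. Rdh10, which makes retinaldehyde, the precursor of retinoic acid, was 2.71-fold lower (2.55 to 2.89), with 57.5 CPM in S3 and 156 CPM in S0. Fabp5, a lipid carrier that can bind retinoic acid, was 2.33-fold lower (2.2 to 2.47).

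The start regions of Cyp26a1 and Rarb are printed because both hold a form of the direct repeat that RAR binds. It is GTTCA and AGTTCA with 5 bases of any kind between them, written in capitals. In Cyp26a1 (chr19:37697558-37697857, plus strand) it lies on the opposite strand, 32 bases before the start, and in Rarb (chr14:16575427-16575726, minus strand) on the gene's strand, 52 bases before it.
Cyp26a1: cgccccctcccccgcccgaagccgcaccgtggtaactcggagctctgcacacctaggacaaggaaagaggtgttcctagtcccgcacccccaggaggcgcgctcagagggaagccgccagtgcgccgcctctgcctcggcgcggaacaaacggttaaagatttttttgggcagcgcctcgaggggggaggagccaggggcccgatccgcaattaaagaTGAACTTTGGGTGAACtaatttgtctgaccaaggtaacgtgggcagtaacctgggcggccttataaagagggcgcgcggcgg
Rarb: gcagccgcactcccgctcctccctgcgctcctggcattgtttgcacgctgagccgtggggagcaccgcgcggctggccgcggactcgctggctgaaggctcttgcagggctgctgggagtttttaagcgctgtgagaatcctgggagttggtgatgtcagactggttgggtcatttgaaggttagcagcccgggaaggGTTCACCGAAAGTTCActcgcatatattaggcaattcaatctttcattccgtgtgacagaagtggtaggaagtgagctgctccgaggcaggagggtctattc
Of 9 higher retinoic acid genes with a window, 2 held this element on either strand, as did 11 of the 27025 genes with a window. Only these letters were searched, and both printed genes hold them. The counts therefore depend on the choice of letters, and no enrichment is drawn from them.

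Hox genes, which give cells their place along the body axis and include known retinoic acid targets, gave 11 higher and 0 lower of 19 measured members, while 20 of the 39 listed stayed under 1 CPM in both libraries. As 10 of the 19 reached 1 CPM in S3 alone, the count is partly set by the filter. The summed level of all 39 listed Hox genes was 90.6 CPM in S3 and 25.1 CPM in S0, after 122 CPM in S2. Hoxb9 had 183 reads in S3 and 2 in S0, a ratio of 104 (28.5 to 868). Hoxa5 had 2.77, 6.06, 44.6 and 17.3 CPM in S0, S1, S2 and S3 and was 6.24-fold higher (4.86 to 8.11) in S3 than in S0, and Hoxd8 was 10.6-fold higher (6.6 to 18.1).

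The S3 medium held neither growth factor, and several genes of the EGF and FGF families were higher in S3. Of 22 measured receptors and ligands of the EGF and FGF families, 9 were higher and 0 lower (median log2 ratio 0.98). Fgf2, the gene of basic FGF itself, had 31.1, 49.9, 367 and 723 CPM in S0, S1, S2 and S3 and was 23.2-fold higher (21.7 to 24.9) in S3 than in S0. Fgf7, a growth factor from stromal cells for epithelium, had 24.8 CPM in S3 and 1.42 CPM in S0, 17.4-fold higher (12.5 to 24.8), and Fgf9, a factor of mesothelium and mesenchyme, had 13.3 CPM in S3 and 0.749 CPM in S0, 17.7-fold higher (11.3 to 29.4). The receptor Fgfr3 was 5.19-fold higher (3.96 to 6.9). Among 32 genes induced by ERK, the kinase downstream of these receptors, 7 were lower and 0 higher (median log2 ratio -0.46). The immediate early factor Fos was 4.55-fold lower (4.05 to 5.13), Egr2 5.03-fold lower (3.55 to 7.3) and the FGF-responsive factor Etv5 3.1-fold lower (2.88 to 3.35). Dusp6, the phosphatase that limits ERK, stayed inside the limit, with 219 CPM in S3 and 394 CPM in S0, and was chosen after its values were seen.

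PI3K and AKT carry the signal of insulin and growth factors, and the series' title names PI3K. Of 48 measured members of that pathway, 2 were higher and 7 lower, beside 9.46% and 11.1% of all genes, and the median log2 ratio was 0.02. That median was -0.03 with DESeq2's size factors and 0.08 with upper-quartile factors, so it has no stable sign. Pik3ca, the catalytic subunit of most tissues, had 146 CPM in S3 and 125 CPM in S0 (1.17-fold, 1.12 to 1.23), and the kinase Akt1 had 209.6 CPM in S3 and 255 CPM in S0 (a ratio of 1.22 as S0 over S3, 1.17 to 1.26); neither passed the limit. The higher members were the regulatory subunit Pik3r3 (3.28-fold, 2.95 to 3.66) and the growth inhibitor Ddit4 (2.98-fold, 2.58 to 3.47). The lower members include Pik3cg, Pik3r5 and Pik3r6, the subunits of the PI3K of leukocytes, and the leukocyte phosphatase Inpp5d. Pik3cg had 1.96 CPM in S3 and 76.3 CPM in S0, 38.8-fold lower (29 to 53.2), and Inpp5d had 4.06 CPM in S3 and 194 CPM in S0, 47.9-fold lower (39.1 to 59.3). Macrophage markers, at 1271 CPM in S3 and 22017 CPM in S0 in sum, moved the same way, and their part in these values was not tested. The insulin receptor Insr, chosen after its values were seen, was at 98.2 CPM in S3 and 75.3 CPM in S0. In the IGF axis, 7 of 17 members were higher and 4 lower (median log2 ratio 0.59): Igfbp2, an IGF carrier, was 7.3-fold higher (6.49 to 8.23), the hormone Igf1 was 14.4-fold lower (12.5 to 16.6), with 9.01 CPM in S3 and 129.7 CPM in S0, and the carrier Igfbp4 was 4.49-fold lower (4.29 to 4.7).

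Nicotinamide feeds the synthesis of NAD and inhibits enzymes that consume it. Genes of NAD synthesis and use gave 4 higher and 2 lower of 36 measured members (median log2 ratio -0.09), beside 9.46% and 11.1% of all genes. Of the 36, 2 reached 1 CPM in S3 alone and 1 in S0 alone. The former were Aox3 and Sarm1, both called higher, and the filter fixed their direction. Aox1, an oxidase that converts nicotinamide metabolites, had 8.2, 14.2, 83.9 and 62.6 CPM in S0, S1, S2 and S3 and was 7.64-fold higher (6.62 to 8.84); its level in S2 was reached before nicotinamide was given. Qprt, which makes NAD from tryptophan, was 3.6-fold higher (2.49 to 5.3) at 5.25 CPM in S3 and 1.46 CPM in S0. Cd38, an NAD-consuming enzyme of leukocytes, was 2.2-fold lower (2.05 to 2.36) (not called with upper-quartile scaling) and Parp14, an interferon-induced ADP-ribosyl transferase, 8.69-fold lower (7.48 to 10.1). Nampt, the main enzyme that reuses nicotinamide, and Nnmt, which methylates it, passed neither limit and were chosen after their values were seen: Nampt had 73.8 CPM in S3 and 141 CPM in S0, and Nnmt 19.9 CPM in S3 and 11.7 CPM in S0.

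Genes of the oxidative stress response were higher in large part. The factor NRF2, made by Nfe2l2, binds the antioxidant response element and raises glutathione and thioredoxin enzymes. Of 41 measured members of this list 22 were higher and 0 lower, with a median log2 ratio of 1.46. Gsta2 had 1.53, 24.9, 129 and 164 CPM in S0, S1, S2 and S3 and was 107-fold higher (78.6 to 149) in S3 than in S0. Gstm1 was 22.9-fold higher (21.6 to 24.3), at 976 CPM in S3 and 42.6 CPM in S0, and Gsta1 38-fold higher (33.3 to 43.5). Gstm3 had 252 reads in S3 and 2 in S0, a ratio of 144 (39.4 to 1193). These transferases have near-identical paralogs between which the authors' counting may have shared reads. Txnrd1, thioredoxin reductase, was 4.2-fold higher (4.11 to 4.29), at 1674 CPM in S3 and 399 CPM in S0. Genes without such paralogs, chosen after their values were seen, include the quinone reductase Nqo1, with 22.1, 442, 443 and 255 CPM in S0, S1, S2 and S3, 11.6-fold higher in S3 than in S0 (10.6 to 12.6), and the glutathione synthesis subunits Gclc (6.23-fold, 6.05 to 6.41) and Gclm (3.39-fold, 3.24 to 3.55). The mRNA of NRF2 itself passed neither limit, with a ratio of 1.02 for Nfe2l2 (0.978 to 1.06 as S0 over S3).

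Genes that make cholesterol and fatty acids were higher in large part. Of 27 measured genes of cholesterol synthesis and uptake, 17 were higher and 0 lower, with a median log2 ratio of 1.72. Fdft1, squalene synthase, had 31.7, 73.3, 118 and 171 CPM in S0, S1, S2 and S3 and was 5.38-fold higher (4.99 to 5.8), Idi1 of the isoprenoid steps 5.46-fold (4.76 to 6.27) and the sterol reductase Tm7sf2 5.32-fold (4.74 to 6.0). Hmgcs1, the synthase at the pathway's start, was 3.85-fold higher (3.66 to 4.05) at 283 CPM in S3 and 73.5 CPM in S0, and was chosen after its values were seen. Of 24 measured genes of fatty acid synthesis, 12 were higher and 1 was lower (median log2 ratio 1.25). The desaturase Scd2 had 129.6, 557, 1472 and 2067 CPM in S0, S1, S2 and S3 and was 16-fold higher (15.4 to 16.5) in S3 than in S0. Its relative Scd1 was 14.2-fold higher (13.1 to 15.5), the polyunsaturated fatty acid desaturase Fads2 17.5-fold (16.2 to 19) and Acss2, which activates acetate, 9.09-fold (7.51 to 11.1). The lower member was Plin2, a coat protein of lipid droplets, with 223 CPM in S3 and 765 CPM in S0, 3.43-fold lower (3.33 to 3.54). Fatty acid oxidation and PPAR target genes gave 1 higher and 3 lower of 30 (median log2 ratio 0.22). Over all genes, 9.46% were higher and 11.1% lower. The higher member was Ppara, the receptor that drives these genes, with 1.45 CPM in S3 and 0.337 CPM in S0, a ratio of 4.31 (2.02 to 10.2). Its call was lost with DESeq2's size factors, with TMM factors from S3 and S0 alone, with library sizes without mitochondrial genes and Malat1 and with a 99% interval, and the RPKM ratio put 6 members of the list higher and 4 lower. The fatty acid receptor Cd36, also of macrophages, was 3.48-fold lower (3.23 to 3.77) and Angptl4, an inhibitor of lipoprotein lipase, 4.02-fold lower (3.56 to 4.54).

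The windows of Gclm and Hmgcs1 show these elements at higher genes of the lists. Capitals mark TGACNNNGC, the core of the antioxidant response element, in Gclm (chr3:122245307-122245606, plus strand; the element is on the opposite strand, 134 bases before the start) and TCACNCCAC, a sterol regulatory element, in Hmgcs1 (chr13:119690101-119690400, plus strand; 137 bases before the start).
Gclm: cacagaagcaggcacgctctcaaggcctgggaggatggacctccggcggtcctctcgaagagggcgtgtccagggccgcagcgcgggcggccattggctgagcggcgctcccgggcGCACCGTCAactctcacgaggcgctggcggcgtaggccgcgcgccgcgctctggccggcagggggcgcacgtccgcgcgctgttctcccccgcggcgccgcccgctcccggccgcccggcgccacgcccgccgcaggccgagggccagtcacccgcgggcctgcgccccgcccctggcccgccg
Hmgcs1: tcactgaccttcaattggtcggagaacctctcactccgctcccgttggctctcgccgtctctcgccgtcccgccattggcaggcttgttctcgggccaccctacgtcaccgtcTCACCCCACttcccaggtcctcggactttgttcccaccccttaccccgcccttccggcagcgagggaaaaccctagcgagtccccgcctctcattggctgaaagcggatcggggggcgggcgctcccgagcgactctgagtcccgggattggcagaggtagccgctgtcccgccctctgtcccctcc
On either strand, the antioxidant element was found in 5 of 18 higher NRF2 list genes with a window and in 14% of all 27025 genes, and the sterol element in 1 of 10 higher cholesterol genes with a window and in 1.44% of all. These letters were looked for in 300 bases only.

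Transcripts of energy metabolism differed between the genomes of the cell. All 13 measured mitochondrially encoded genes had a ratio above 1, 7 passed the higher limit, and the median log2 ratio was 1.21. mt-Co1, the catalytic subunit of cytochrome oxidase, had 10417, 10121, 16861 and 25340.0 CPM in S0, S1, S2 and S3 and gained more CPM than any other gene, 2.43-fold higher in S3 than in S0 (2.42 to 2.44). mt-Nd4 of complex I was 2.62-fold higher (2.54 to 2.71), and mt-Cytb of complex III 2.36-fold higher (2.31 to 2.41). Transcripts of the mitochondrial genome took 2.96% of reads in S3 and 1.21% in S0. Most of these were mt-Co1, which alone took 2.51% of reads in S3 and 1.01% in S0. The median log2 ratio of the 43 measured respiratory chain genes of the nucleus was -0.07. They gave 0 higher and 1 lower, beside 9.46% and 11.1% of all genes. That lower member was the regulator Ppargc1b, with 0.427 CPM in S3 and 5.13 CPM in S0, 12-fold lower (6.34 to 25.6). Of 33 genes of glycolysis and hypoxia, 2 were higher and 6 lower (median log2 ratio -0.42), beside 9.46% and 11.1% of all genes. Ldha, the lactate dehydrogenase subunit of glycolytic tissues, had 363 CPM in S3 and 1091 CPM in S0 and was 3.01-fold lower (2.93 to 3.08), and Ldhb, that of oxidative tissues, had 99.3 CPM in S3 and 22.4 CPM in S0 and was 4.43-fold higher (4.04 to 4.85). The lactate exporter Slc16a3 was 5.54-fold lower (4.99 to 6.16) and the leukocyte hexokinase Hk3 18.5-fold lower (15.7 to 21.9).

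**Figure D3:**
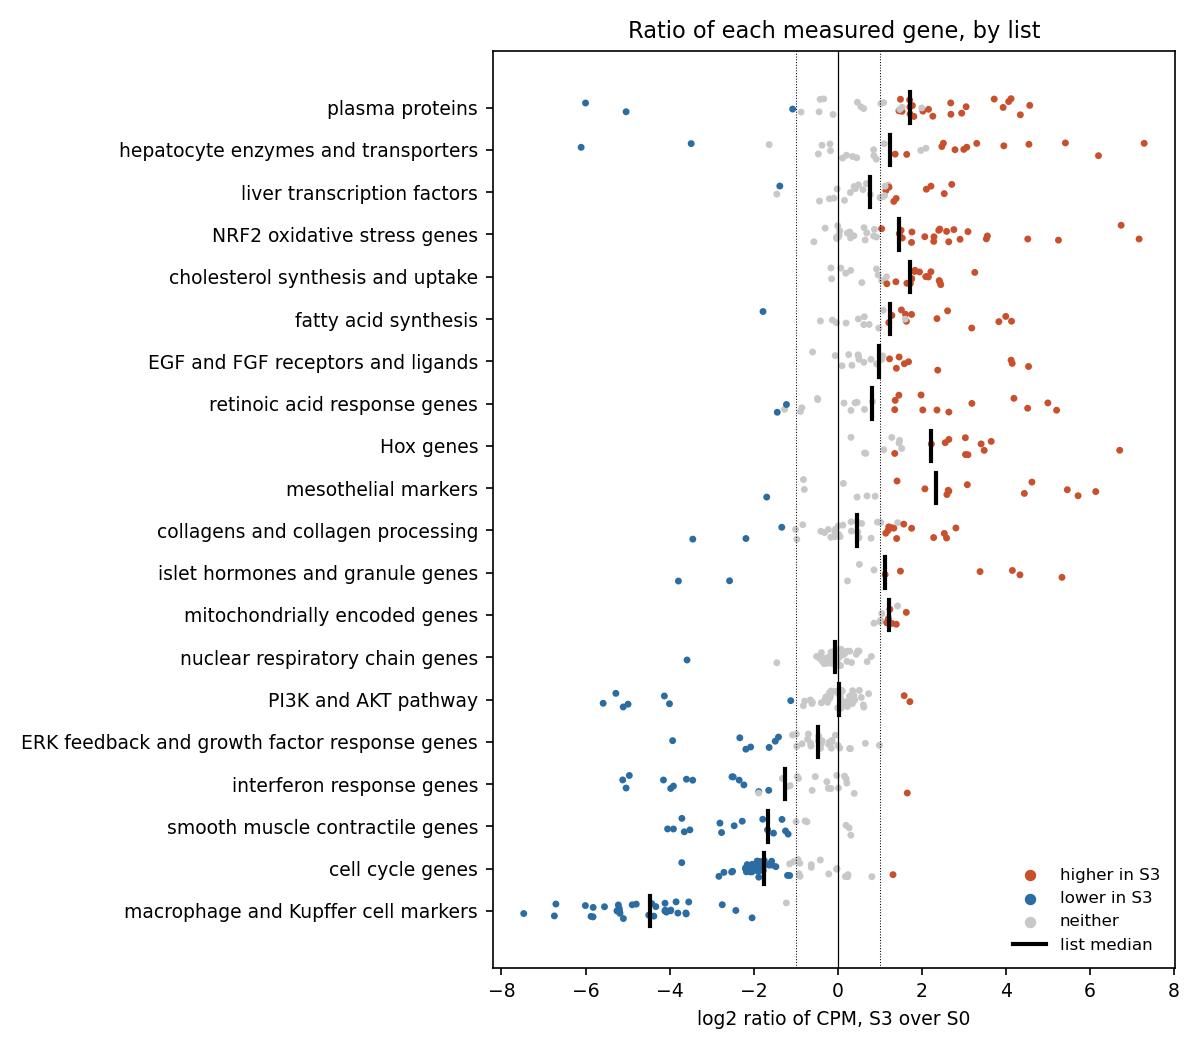
Log2 ratio of CPM, S3 over S0 (horizontal axis), of each measured member of 20 gene lists (rows, spread vertically only for visibility). Red points were called higher, blue lower and grey neither; black bars are list medians, dotted lines mark 2-fold, and genes with 0 reads in a library are drawn at their 3-read bound. The median is -4.46 for the macrophage list, -1.77 for cell cycle genes, 1.71 for plasma proteins and 1.72 for cholesterol synthesis.

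Insulin transcripts, the aim of the protocol, were at the limit of detection. Ins1 had 0 reads in all 4 libraries, which allows up to 0.128 CPM in S3 and 0.112 CPM in S0, and Ins2 had 1 read in S3 and 0 reads in S0, S1 and S2. The hormone genes Gcg, Sst, Ppy and Iapp, chosen after their values were seen, had 0 reads in both S3 and S0. Pdx1, the factor of pancreas formation and of beta cells, had 1 read in S3 and 6 reads in S0. Mafa, which activates the insulin gene, had 15 reads in S3 and 4 reads in S0, and Neurog3, which starts endocrine development, had 0 reads in both. None of these reached 1 CPM in S3 or S0.

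Genes of hormone granules are shared by many secretory and nerve cells. Of 26 listed islet hormones and granule genes 11 were measured, 6 were higher and 2 lower (median log2 ratio 1.13), and 3 reached 1 CPM in S3 alone. The summed level of all 26 listed genes was 1111 CPM in S3 and 574 CPM in S0. Most of that sum lay outside the higher members named below: Vgf, Scg5, Pcsk1n and Chga had 52.6, 5.08, 4.53 and 2.26 CPM in S3. The list also holds Ttr, which is counted with the plasma proteins too, so the sum is no measure of islet granule genes alone. Vgf, a granule precursor protein, had 2.96, 113, 25.3 and 52.6 CPM in S0, S1, S2 and S3 and was 17.8-fold higher (14.2 to 22.6) in S3 than in S0. Chga, the granule protein chromogranin A, had 53 reads in S3 and 0 reads in S0, at least 15.8-fold higher. Its highest level was in S1, at 8.82 CPM. Pcsk1n, an inhibitor of prohormone cleavage, had 106 reads in S3 and 0 in S0, at least 32.2-fold higher. Scg5, a chaperone of a prohormone protease, had 5.08 CPM in S3 and 0.487 CPM in S0, 10.4-fold higher (5.88 to 20.2). The calcium channel Cacna1d was 13.8-fold lower (8.71 to 23.3), and the peptide gene Npy 5.96-fold lower (4.31 to 8.41).

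Islet transcription factors gave 3 higher and 3 lower of 12 measured members out of 27 listed (median log2 ratio 0.72). All 3 higher members reached 1 CPM in S3 alone and 2 of the lower members in S0 alone, so the filter fixed their direction. With a filter of 10 CPM, 0 of 7 were higher and 2 lower (median log2 ratio 0.13). Pax6, a factor of islet, eye and brain, had 32 reads in S3 and 3 in S0, a ratio of 12.2 (3.81 to 62.1). St18, a zinc finger factor, had 2 reads in S3 and 257 in S0. In the list for glucose sensing and secretion, 3 of 16 were higher and 1 was lower (median log2 ratio 0.45). Over all genes, 9.46% were higher and 11.1% lower. Slc2a2, the glucose transporter of both hepatocytes and mouse beta cells, had 1.16, 0.551, 1.55 and 9.73 CPM in S0, S1, S2 and S3 and was 8.39-fold higher (5.75 to 12.6) in S3 than in S0. Pcx, pyruvate carboxylase, was 4.56-fold higher (4.06 to 5.15), at 59.8 CPM in S3 and 13.1 CPM in S0. Of 24 listed exocrine pancreas genes 2 were measured, and Cela1, an elastase, was 3.8-fold lower (2.0 to 7.82), a call lost with upper-quartile scaling, without TMM factors and with a 99% interval. Of 30 listed neural markers 16 were measured, and 7 were higher and 1 was lower (median log2 ratio 1.18). Of the 16, 5 reached 1 CPM in S3 alone. The unmeasured markers, Syt1, Syp, Snap25 and Dcx among them, stayed under 1 CPM in both libraries. Gpm6a, counted with the mesothelial markers above, is among the higher members. The lower member was Dpysl3, 3.07-fold lower (2.9 to 3.26). With a filter of 10 CPM, 2 of 5 were higher and 1 lower (median log2 ratio 0.02). The filament protein Ina had 2.48 CPM in S3 and 0.187 CPM in S0, 13.2-fold higher (5.35 to 42.3).

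The gene farthest on the higher side by its interval was one known from neurons. Cntn2, a contactin of axons, had 13998 reads in S3 and 17 in S0. Its level was 0.636, 23.4, 34.5 and 598 CPM in S0, S1, S2 and S3, and S3 was 939-fold higher (586 to 1612) than S0, with most of the difference between S2 and S3. The secreted protein Angptl7 had 303 CPM in S3 and 3.18 CPM in S0, 95.4-fold higher (77 to 119.5), and Cpz, a carboxypeptidase of the matrix, had 61.1 CPM in S3 and 1.01 CPM in S0, 60.4-fold higher (41.4 to 92). Megf6 was 51.1-fold higher (40.7 to 65.1) and Fam180a 68.2-fold higher (40.4 to 125). Ces1d, a carboxylesterase of liver and fat, had 134 reads in S3 and 0 in S0, at least 40.9-fold higher. It belongs to a family of close paralogs. Tnfsf18, a ligand of the TNF family, had 248 reads in S3 and 2 in S0, a ratio of 141 (38.7 to 1174).

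Interferon and inflammation genes were lower more often than higher, and complement genes higher more often than lower. Interferon response genes gave 14 lower and 1 higher of 32 measured (median log2 ratio -1.25). Of the 32, 7 reached 1 CPM in S0 alone, and with a filter of 10 CPM 10 of 22 were lower and 0 higher. The antiviral synthetases Oas3 and Oas2 were 31.1-fold (20.6 to 49.4) and 32.8-fold lower (17.6 to 69), and Irf8, a factor of myeloid cells, 34.7-fold lower (25.5 to 48.3). Cxcl10, an interferon-induced chemokine, was the higher member, at 4.35 CPM in S3 and 1.39 CPM in S0 (3.14-fold, 2.14 to 4.71), a call lost with a 99% interval. Of 31 measured inflammation and acute phase genes, 15 were lower and 7 higher (median log2 ratio -1.11). Ccl9, a macrophage chemokine, was 27.1-fold lower (24.4 to 30.3), and the interleukin 1 antagonist Il1rn 31.4-fold lower (22 to 46.4). Among the higher members are products of the acute phase of liver and epithelia. Saa3, a serum amyloid protein, had 25.6, 33.4, 0.637 and 129.5 CPM in S0, S1, S2 and S3 and was 5.05-fold higher (4.65 to 5.5) in S3 than in S0. Lcn2, an iron-binding lipocalin, had 24.9 CPM in S3 and 2.4 CPM in S0, 10.4-fold higher (8.01 to 13.7), Serpina3n, a protease inhibitor with close paralogs, was 17.8-fold higher (10.8 to 31.7), and Hp, haptoglobin, 3.82-fold higher (3.2 to 4.59). Complement genes gave 7 higher and 4 lower of 20 measured (median log2 ratio 0.59). The protease C1s1 was 37.5-fold higher (28.3 to 50.5), at 71.5 CPM in S3 and 1.91 CPM in S0, and the regulator Cfi 10.7-fold higher (9.49 to 12.2), while the phagocyte receptors C5ar1 and C3ar1 were 47.6-fold (38 to 60.3) and 27.3-fold lower (24.4 to 30.6). The lower calls sit beside macrophage markers that were lower too, and the part of those cells in them was not tested.

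In other signalling lists the directions were mixed. TGF-beta and BMP signalling gave 7 higher and 7 lower of 37 measured (median log2 ratio -0.19), beside 9.46% and 11.1% of all genes. The ligands Bmp6 and Bmp7 were 8.65-fold (6.95 to 10.9) and 17.1-fold higher (8.02 to 43.6), and Bmp2 and Tgfb1 5.26-fold (3.89 to 7.25) and 4.28-fold lower (3.74 to 4.92). Wnt and Notch signalling gave 11 higher and 3 lower of 34 (median log2 ratio 0.99). Sfrp1, a secreted Wnt inhibitor, had 3.56, 35.4, 9.33 and 38 CPM in S0, S1, S2 and S3 and was 10.7-fold higher (8.63 to 13.3) in S3 than in S0. The Notch regulator Dtx1 had 73 reads in S3 and 2 in S0, a ratio of 41.6 (11.1 to 350.2), after a peak of 30.3 CPM in S1. Notch1, the receptor, was 3.09-fold lower (2.89 to 3.31) and the ligand Wnt7a 5.16-fold lower (4.33 to 6.18). Among 32 measured enzymes of DNA methylation and histone deacetylation, the targets of both S1 inhibitors, 2 were higher and 3 lower (median log2 ratio -0.07), beside 9.46% and 11.1% of all genes. Dnmt1, the maintenance methyltransferase that dividing cells need, had 235, 80.8, 50.1 and 89.7 CPM in S0, S1, S2 and S3, and Uhrf1, its partner at the replication fork, had 131, 18.7, 4.1 and 32.4 CPM in S0, S1, S2 and S3; they were 2.62-fold (2.49 to 2.75) and 4.03-fold lower (3.73 to 4.37) in S3 than in S0. Of 35 listed germline genes, which DNA methylation silences in other cells, 9 were measured, 2 were higher and 2 lower, and 4 reached 1 CPM in S0 alone, both lower members among them. Tex15, a gene of male meiosis, had 2.21, 27.6, 7.97 and 10.4 CPM in S0, S1, S2 and S3, 4.7-fold higher in S3 than in S0 (3.52 to 6.35), and Smc1b, a meiotic cohesin, had 2 reads in S3 and 35 in S0. ER chaperone and stress genes gave 0 higher and 1 lower of 30 measured, beside 9.46% and 11.1% of all genes. The lower member Psat1, of serine synthesis, was 2.32-fold lower (2.18 to 2.48).

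Long non-coding RNAs with at least 1 CPM in S3 or S0 numbered 1006, and 143 of these were higher (14.2%) and 98 lower (9.74%), against 1215 higher and 1493 lower of 13348 protein-coding genes. The higher calls came largely from 276 unannotated transcripts with assembly names, of which 98 were higher and 15 lower. Of the other 730, 45 were higher and 83 lower. The 5 farthest of the higher side were all unannotated: MSTRG.7554 on chromosome 15 had 84.6 CPM in S3 and 0.674 CPM in S0, 125-fold higher (79.2 to 212), and MSTRG.12671 and MSTRG.12670, both on chromosome 2, were 92.2-fold (67.6 to 129) and 90-fold higher (66 to 126). As strand use in counting is not given, such transcripts may hold reads of genes they overlap. The farthest annotated transcript on the lower side was F630028O10Rik on the X chromosome, with 0.64 CPM in S3 and 82.6 CPM in S0, 129-fold lower (78 to 231).

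Malat1, the nuclear transcript named in the series' title, had 4602, 18013, 17866 and 8339.7 CPM in S0, S1, S2 and S3. S3 was 1.81 times S0 (1.8 to 1.83), inside the 2-fold limit, and below S1 and S2. Neat1, its neighbour on the chromosome (chosen after its values were seen), had 463 CPM in S3 and 312 CPM in S0 and passed neither limit. Of 32 measured lncRNAs with known names, 2 were higher and 6 lower (median log2 ratio -0.24), beside 9.46% and 11.1% of all genes. Trp53cor1, a p53-induced lncRNA, was 2.84-fold higher (2.23 to 3.65) at 9.99 CPM in S3 and 3.52 CPM in S0. Meg3 and Mirg, of 1 imprinted cluster, were 2.87-fold (2.51 to 3.3) and 5.0-fold lower (3.6 to 7.08), the precursor of the growth-promoting microRNA cluster Mir17hg 4.19-fold lower (2.75 to 6.6) and the smooth muscle lncRNA Mir143hg 4.08-fold lower (2.72 to 6.33).

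**Figure D4:**
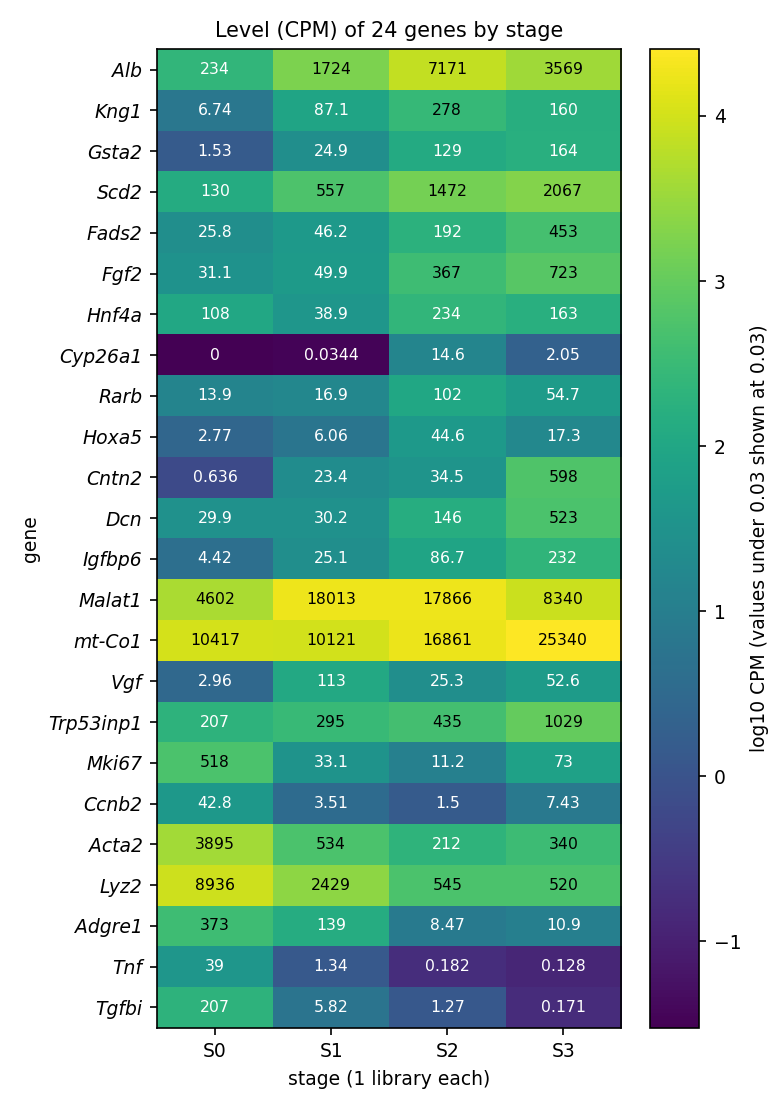
Level of 24 named genes (rows) in the S0, S1, S2 and S3 libraries (columns), with the CPM printed in each cell and its log10 as colour; values under 0.03 CPM are coloured as 0.03. Alb, Cyp26a1, Hoxa5 and Rarb have their highest value in S2, Cntn2, Fgf2, Scd2, Dcn and mt-Co1 in S3, and Lyz2, Acta2, Mki67, Tnf and Tgfbi in S0.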

How the data were processed

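Total RNA was taken up in Trizol and sequenced on an Illumina machine from stranded libraries, per the labels' protocols. Build mm9 and the tool bcl2fastq (no version) are named in the submitters' processing notes. An aligner, a counting program, an annotation and any use of strand in counting were not given in the sources used here, so values of close paralogs and of overlapping or antisense genes are uncertain.

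The authors deposited read counts per gene, and RPKM values (scaled by library size and gene length) for the same 30138 entries, each named so per the file headers. The deposited counts were used for all ratios, and the authors' RPKM values only to compare levels between genes and as an alternative. Counts were scaled to CPM with TMM factors over all 4 libraries (edgeR 4.0.16, R 4.3.3). The factor was 0.991 for S3 and 0.968 for S0. Genes with at least 1 CPM in S3 or S0 were compared. Each log2 ratio, S3 over S0, has an interval from the exact binomial limits (Clopper-Pearson, 95%) of S3's share of the gene's reads in both libraries (scipy 1.17.1, Python 3.11.15), and a gene was called when the whole interval lay beyond 2-fold. A gene with 0 reads was set at 3 reads, and its ratio is written as "at least" the inner limit of its 95% interval. Intervals and bounds cover counting error only, since 1 library a stage gives no spread between cultures. PCR copies of 1 molecule were not collapsed as far as the labels say, so the intervals may be too narrow even for counting error. With 1 library a stage, no test between stages was possible.

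The members and the 45 gene lists were chosen with earlier results of these data known. Named genes were the 15 protein-coding genes on each side with the most extreme inner interval bound, the 10 that gained and the 10 that lost most CPM, up to 4 called genes on each side per list, 5 long non-coding RNAs on each side, and 14 genes of interest. Others are marked as chosen after their values were seen. Promoter windows are RefSeq's, in build GRCm38.p6, and were matched by gene symbol. No coordinate was converted. Some named genes are not reported here. The 11 alternatives were other scalings (with DESeq2 1.42.0 among them), filters, fold thresholds, a 99% interval, library sizes without mitochondrial genes and Malat1, and the RPKM ratio.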

Additional observations from a re-analysis of the deposited data

Results flagged for a closer look

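Some genes were measured in the stages between, but lay under 1 CPM at both ends and so entered no comparison of S3 with S0. Of such genes of any type, 724 reached 1 CPM in S1 and 261 in S2. In S1, 488 protein-coding genes of this kind stood more than 2-fold above S3 and S0 by their whole interval. Because the filter holds both ends low, it largely sets the direction of these genes, and their number is no result of its own. The clearest were the neurofilament gene Nefl at 27.7 CPM in S1, the scaffold gene Mapk8ip2 at 19 CPM, the potassium channel gene Kcnh3 at 14.2 CPM, Zcchc12 at 6.58 CPM and the lysophosphatidic acid receptor gene Lpar3 at 6.41 CPM. In S3 and S0, Nefl had 16 and 4 reads, Mapk8ip2 had 11 and 0 reads, and Kcnh3 had 0 and 3 reads. In S2, 18 such protein-coding genes were found, under the same limit of the filter. Of the 5 clearest, Cyp3a25, a drug oxidase, had 3.10 CPM in S2, and the antitrypsin genes Serpina1c and Serpina1e had 6.06 and 4.19 CPM. The others were the sialyltransferase gene St8sia2 at 1.59 CPM and the prolactin receptor gene Prlr at 0.865 CPM. The antitrypsin genes were higher still in S1, at 17.1 CPM for Serpina1c and 11.7 CPM for Serpina1e, and are close paralogs between which reads may be shared.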

How the results depend on the processing

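The main counts of 1358 higher and 1593 lower genes in S3 kept within 1.5 times under every alternative scaling tried, under a lower filter, a 99% interval and the RPKM ratio. They moved further with a filter of 10 CPM, which left 839 higher genes, with a 1.5-fold threshold, which gave 2409 higher genes, and with a 4-fold threshold, which gave 473 higher and 812 lower genes. With the ratio of deposited RPKM values and no interval, 1998 genes were higher and 2044 lower. Higher genes made up 46.0% of the called genes, 44.1% with DESeq2's size factors and 49.2% with upper-quartile factors. Other scalings put the median log2 ratio of all genes between -0.01 and 0.09. No named gene reversed its called direction. Of the 45 lists, 2 changed the side that held more calls: fatty acid oxidation and PPAR targets, with 1 higher and 3 lower, gave 6 and 4 with the RPKM ratio, and NAD synthesis and use, with 4 higher and 2 lower, gave 1 and 2 with the filter of 10 CPM. The germline median of -0.15 was 0.38 with the filter of more than 3 reads. The medians of 3 lists that lie near 0 also changed sign with the scaling (ER chaperones, the PI3K and AKT pathway, and exocrine pancreas genes). Of the named genes, 87 lost their call at 4-fold and 8 with the 99% interval. No paired analysis was possible because each stage is a single library, and for the same reason no library could be left out. Members at 1 CPM in 1 of the 2 libraries, whose direction the filter fixes, also include 7 of 36 macrophage markers and 4 of 31 inflammation and acute phase genes (S0 alone), and 5 of 37 plasma proteins, 3 of 18 mesothelial markers, 4 of 25 genes of keratins, claudins and desmosomes and 5 of 34 Wnt and Notch genes (S3 alone). Depth limits genes under about 1 CPM, where intervals span several fold.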
